A study of Mus musculus with 6 samples.

Results

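The genes described here encode NF-κB transcription factors and IκB proteins that bind them, and 10 were chosen by name from a mouse expression table. They are the subunit genes Nfkb1, Nfkb2, Rel, Rela and Relb, and the IκB family genes Nfkbia, Nfkbib, Nfkbid, Nfkbie and Nfkbiz. Bcl3, another IκB protein gene, was counted with the signalling genes and is not among the 10. All 10 are among the 24421 genes of the table, and all 10 were above the limit for testing, which was an FPKM of 1 or more in 2 or more libraries. FPKM is a read fragment count divided by transcript length and by the mapped fragments of the library, so levels of different genes can be set side by side. The libraries were made by SMART-seq, in which poly(A) RNA is copied into full-length cDNA and amplified by PCR, from regulatory T cells (Treg), a CD4 lineage defined by the factor Foxp3 that holds other immune cells in check. Spleen and lymph nodes of wild-type (WT) mice were the source, and the 6 libraries formed 3 groups of 2: stimulated in the presence of iBP, stimulated without it, and unstimulated. No group had iBP alone. The design text presents iBP as inhibiting H2AK119ub1, the histone H2A mark that the Polycomb complex PRC1 writes, and the activation as done in vitro. The same text names Treg of Kdm2b cKO mice, which were not analysed here. The age and sex of the mice, the stimulus, its length, the dose of iBP and the purity of the cells are not given in the labels.

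As background, NF-κB factors act as dimers that IκB proteins hold in the cytoplasm of resting cells. Signals from the T-cell receptor and CD28, or from receptors of the TNF and interleukin 1 families, activate a kinase that marks IκBα for destruction, and the freed dimers switch on genes that include Nfkbia itself. Nfkbiz and Nfkbid encode atypical IκB proteins, IκBζ and IκBNS, which act in the nucleus and can raise as well as lower transcription of chosen NF-κB targets. In mouse Treg, c-Rel, the product of Rel, is needed for normal development of the lineage, and IκBNS favours the induction of Foxp3.

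Feedback through κB sites in NF-κB-driven promoters is the textbook feature of this family, so the promoters that could be read are shown first. RefSeq promoter sequences (GRCm38.p6, 250 bases before to 50 after the gene start) matched 7 of the 10 genes, and Nfkb1, Relb and Nfkbiz were without an entry. The NF-κB consensus motif of 10 bases, searched on both strands with overlapping matches merged, occurred in 7 of 11 promoters of these genes, belonging to Nfkb2, Rel, Nfkbia, Nfkbid and Nfkbie, and in 8.46% of all 32851 promoters of the same length. Nfkb2 promoters 2 and 3 overlap and share a match (chr19:46305695-46305724 with its flanks). Counted by gene, 5 of 7 had a match, beside 9.55% of all 27025 genes with a promoter sequence. The promoters of Rela and Nfkbib had no match in this window. A match is a string of letters and no evidence of binding. The whole promoter of Nfkbia, the most abundant transcript of the family, lies at chr12:55492598-55492897 on the minus strand and is printed 5′ to 3′ with the match in capitals.
Nfkbia promoter: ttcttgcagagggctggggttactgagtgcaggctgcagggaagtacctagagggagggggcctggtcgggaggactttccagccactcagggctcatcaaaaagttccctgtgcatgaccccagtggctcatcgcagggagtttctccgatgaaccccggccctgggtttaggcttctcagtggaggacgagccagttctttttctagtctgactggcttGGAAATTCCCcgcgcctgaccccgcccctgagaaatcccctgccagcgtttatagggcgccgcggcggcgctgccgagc
For 6 other genes, the nearest match upstream of a gene start is shown with 10 bases on each side, so that the sites of subunit genes, IκB genes and a pair of inhibitors of the pathway, Tnfaip3 and Tnip1, can be compared. Their coordinates are chr19:46304716-46304745 (plus strand) for Nfkb2, chr11:23771041-23771071 (minus) for Rel, chr7:30422215-30422244 (plus) for Nfkbid, chr17:45555584-45555613 (plus) for Nfkbie, chr10:19015403-19015432 (minus) for Tnfaip3 and chr11:54962977-54963008 (minus) for Tnip1.
Nfkb2: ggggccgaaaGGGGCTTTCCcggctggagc
Rel: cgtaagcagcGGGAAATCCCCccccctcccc
Nfkbid: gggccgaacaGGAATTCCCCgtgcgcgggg
Nfkbie: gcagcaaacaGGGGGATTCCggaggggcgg
Tnfaip3: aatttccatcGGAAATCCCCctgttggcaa
Tnip1: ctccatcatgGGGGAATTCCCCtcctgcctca
Genes with a match were found among those that did not pass the test in any comparison, such as Nfkbia and Rel, and among those that fell, such as Tnfaip3.

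The libraries were close in their totals. Summed FPKM lay between 366044 and 381302. Values above 0 were found for 12596 genes in unstimulated replicate 1 and for 13293 to 13592 in the other libraries. The number of reads is unknown, and values carry no counting error for that reason. On the first principal component of all tested genes, unstimulated replicate 1 stood apart at −37.9. Unstimulated replicate 2 was at −9.32 there and the 4 stimulated libraries, with and without iBP, at 10.4 to 13.3. On the second component unstimulated replicate 2 stood apart at −27.0, with unstimulated replicate 1 at 12.1 and the stimulated libraries at −4.67 to 16.2. All 10 T-cell and Treg markers were above 0 in every library, and together they took 0.4185% to 0.5533% of summed FPKM. Markers of B cells, which also express this family, took a larger share. Their 16 genes took 2.54% and 2.50% of summed FPKM with iBP, 2.41% and 2.64% in stimulated and 2.73% and 2.32% in unstimulated libraries. The groups overlap, and 0 of the 16 passed the test in any comparison. Cd74 was the highest of them, at a mean of 2943 FPKM, and such shares are not fractions of cells. Levels of the family are therefore those of whole libraries, and the part of B cells in them was not tested. Myeloid markers, 12 genes with Fcgr1 at 0 in every library, took between 0.0201% and 0.0288%. Of 9 dendritic-cell markers, Ccr7, which T cells express as well, took nearly the whole sum. It fell by 0.50 (log2) in stimulated against unstimulated libraries (adjusted p = 0.0344 by limma), the 1 called of 3 tested genes of that list, and read 1853 and 1966 FPKM with iBP, 1984 and 1785 FPKM in stimulated and 2615 and 2704 FPKM in unstimulated libraries. Its part in the results for the family was not tested. The other 8 together took 0.00132% to 0.00251%, with Clec9a, Itgax and Cd209a at 0 in all unstimulated libraries. In such bulk RNA, fewer cells of a type and less RNA per cell cannot be told apart.

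Expression of the family spanned a wide range and kept nearly the same order in every library. Nfkbia, which encodes IκBα, the main cytoplasmic inhibitor, was the highest at a mean of 905 FPKM over the 6 libraries (range 831 to 993), above 99.6% of tested genes or equal to them. Nfkbid (IκBNS) followed at 203 FPKM (140 to 245) and Rel (c-Rel) at 149 FPKM (141 to 155), and the ranges of these 2 genes overlap. Nfkbiz averaged 96.0 FPKM, Nfkb1, the gene of p105 and p50, 82.3 FPKM, and Nfkbib (IκBβ) 73.5 FPKM. The range of Rel did not overlap that of Nfkbiz. Nfkbiz overlapped Nfkb1 and Nfkb1 overlapped Nfkbib. Below them, with no overlap with Nfkbib, came Nfkbie (IκBε) at 50.8 FPKM, Nfkb2 (p100 and p52) at 48.4 FPKM and Rela (p65) at 32.2 FPKM, of which each overlapped its neighbour. Relb, the partner of p52 in the non-canonical pathway, was the lowest at 15.9 FPKM (14.6 to 17.8), below every value of Rela. Among subunits, Rel took 43.7% to 47.4% of the summed FPKM and Nfkb1 22.7% to 27.1%, and Rel read 3.78 to 5.20 times the level of Rela. The ranks within a library changed most for Nfkbiz, which was the fourth of the 10 genes in all 4 stimulated libraries, with or without iBP, and the seventh and sixth in unstimulated replicates 1 and 2.

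**Figure D1:**
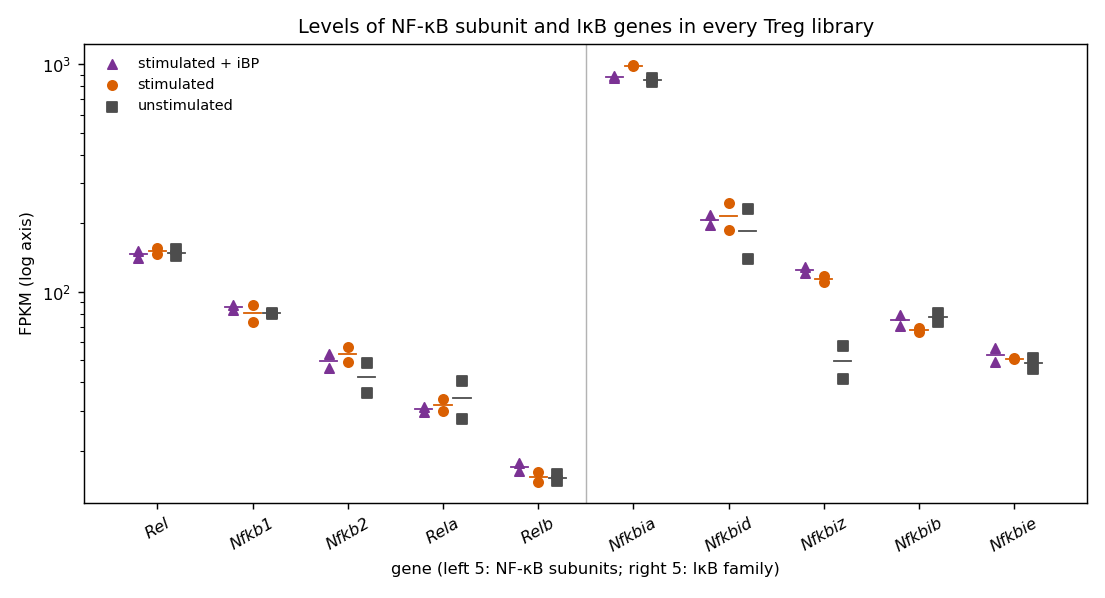
FPKM (log axis) of the 5 NF-κB subunit genes and 5 IκB family genes in the 6 libraries, with purple triangles for stimulated with iBP, orange circles for stimulated, grey squares for unstimulated and short lines for group means. Nfkbia is the highest in every library and Relb the lowest, and Nfkbiz has 4 values between 110.0 and 128 FPKM above 2 unstimulated values of 41.3 and 57.9 FPKM.

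Stimulated and unstimulated Treg were compared first, to see which genes of the family differ after stimulation. Nfkbiz, which encodes IκBζ, rose, and no other member passed the test. Nfkbiz read 117 and 110.0 FPKM in stimulated libraries, against 41.3 and 57.9 FPKM in unstimulated ones. Both stimulated values lay well above both unstimulated values, at means of 114 ± 5.04 and 49.6 ± 11.8 FPKM (SD, n = 2 libraries each). On the scale of log2(FPKM + 1), the difference was 1.20 ± 0.16 (SE; 95% interval 0.85 to 1.54; adjusted p = 0.0025 by limma with Benjamini-Hochberg adjustment over all tested genes), a 2.29-fold higher level. It ranked 34th by p among 10436 tested genes, of which 135 (1.29%) passed, 101 of them higher (0.968%) and 34 lower (0.326%). The call held when any 1 of the 6 libraries was left out, with differences of 0.96 to 1.44 and adjusted p up to 0.0290, and without unstimulated replicate 1 the difference was 0.96 (adjusted p = 0.0115). It ended without the filter on low values (adjusted p = 0.138) and without a trend of variance with level (0.150), where 12 genes in all passed under each.

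The classic feedback inhibitor Nfkbia did not pass the test. It read 980 and 993 FPKM in stimulated libraries, against 831 and 866 FPKM in unstimulated ones, a difference of 0.22 ± 0.10 (log2, SE; unadjusted p = 0.0433, adjusted p = 0.443 by limma). The groups do not overlap, but the difference did not pass. Within a library, Nfkbiz stood at 0.120 and 0.111 of the level of Nfkbia in stimulated libraries and at 0.0497 and 0.0669 in unstimulated ones, a ratio that a scaling factor per library cannot change. With 2 libraries a group, an exact permutation test of this ratio cannot go below a two-sided p of 0.333, which it gave. With the 4 stimulated libraries of both groups together against the 2 unstimulated ones it gave 0.133, the smallest value that design allows.

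**Figure D2:**
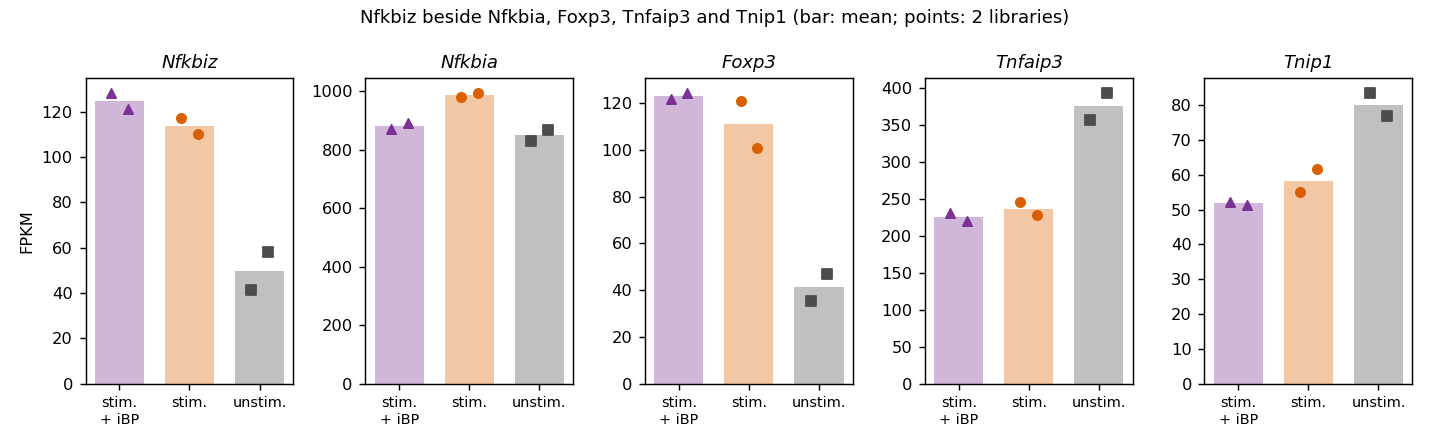
FPKM on linear axes from 0 for Nfkbiz, Nfkbia, Foxp3, Tnfaip3 and Tnip1, with bars for group means and points for the 2 libraries of stimulated with iBP, stimulated and unstimulated, from left to right. Nfkbiz and Foxp3 have their low values in unstimulated libraries, Tnfaip3 and Tnip1 their high ones, and Nfkbia lies between 831 and 993 FPKM throughout.

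The other IκB genes did not pass. Nfkbib read 66.4 and 69.7 FPKM in stimulated libraries, against 81.1 and 73.9 FPKM in unstimulated ones, without overlap (log2 −0.18 ± 0.13, SE; adjusted p = 0.693). Nfkbib shares exon bases on the opposite strand with Ccer2 (314 bases) and Sirt2 (42 bases) in GENCODE M21, and Sirt2 read 42.0 to 63.0 FPKM, so some reads of these genes cannot be told apart if strand was not kept. Nfkbid, which encodes IκBNS, read 245 and 186 FPKM in stimulated libraries, against 140 and 231 FPKM in unstimulated ones. Its groups overlap (0.25 ± 0.20; adjusted p = 0.747), and the sign turned without unstimulated replicate 1, at −0.11. Nfkbie, which encodes the cytoplasmic inhibitor IκBε, read 51.0 and 50.7 FPKM in stimulated and 45.7 and 51.4 FPKM in unstimulated libraries, with a difference of 0.07 ± 0.14 (adjusted p = 0.926).

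Among the subunits, 0 of 5 passed. Rel read 146 and 155 FPKM in stimulated libraries, against 144 and 154 FPKM in unstimulated ones, and its difference of 0.02 ± 0.12 (log2, SE; 95% interval −0.23 to 0.27) had the narrowest interval of the 5. Nfkb1 read 74.0 and 87.5 FPKM in stimulated libraries, against 81.0 and 80.3 FPKM in unstimulated ones (95% interval −0.29 to 0.29). Relb read 14.6 and 16.2 FPKM in stimulated libraries, against 14.7 and 15.9 FPKM in unstimulated ones (−0.40 to 0.41). For these 3 genes the stimulated and unstimulated values lay on top of each other, and the intervals leave room for changes of up to about those bounds. Nfkb2, the precursor gene of the non-canonical pathway, read 57.5 and 49.1 FPKM in stimulated libraries, against 36.0 and 48.5 FPKM in unstimulated ones. The values do not overlap, but by a small margin, and the difference of 0.34 ± 0.17 did not pass (adjusted p = 0.523). It was 0.13 without unstimulated replicate 1, 0.55 without unstimulated replicate 2 and 0.23 without stimulated replicate 1. Nfkb2 has 299 exon bases in common with Psd and 531 with AC114539.1 on the opposite strand, and Psd read 1.64 to 3.24 FPKM. Rela, the p65 gene, read 33.7 and 29.9 FPKM in stimulated libraries, against 27.7 and 40.7 FPKM in unstimulated ones. Both stimulated values of Rela lie between the unstimulated ones (−0.08 ± 0.19; adjusted p = 0.938).

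Counted over the family, 1 of 10 genes rose, 0 fell and 9 did not pass, and the median log2 difference was 0.04 beside −0.0024 over all tested genes. Libraries did not overlap for 3 genes that were higher in stimulated Treg (Nfkbiz, Nfkbia and Nfkb2) and 1 that was lower (Nfkbib), where 18.7% of tested genes were higher and 19.1% lower without overlap. The summed FPKM of the 5 subunit genes was 326 and 338 in stimulated libraries, against 303 and 339 in unstimulated ones. That of the 5 IκB genes was 1459 and 1410 in stimulated libraries, against 1139 and 1280 in unstimulated ones. The IκB sum stood at 4.47 and 4.17 times the subunit sum in stimulated libraries and at 3.75 and 3.78 times in unstimulated ones, without overlap (exact permutation test, two-sided p = 0.333, the smallest this design allows). Nfkbiz made up 8.03% and 7.80% of the IκB sum in stimulated libraries and 3.63% and 4.53% in unstimulated ones.

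**Figure D3:**
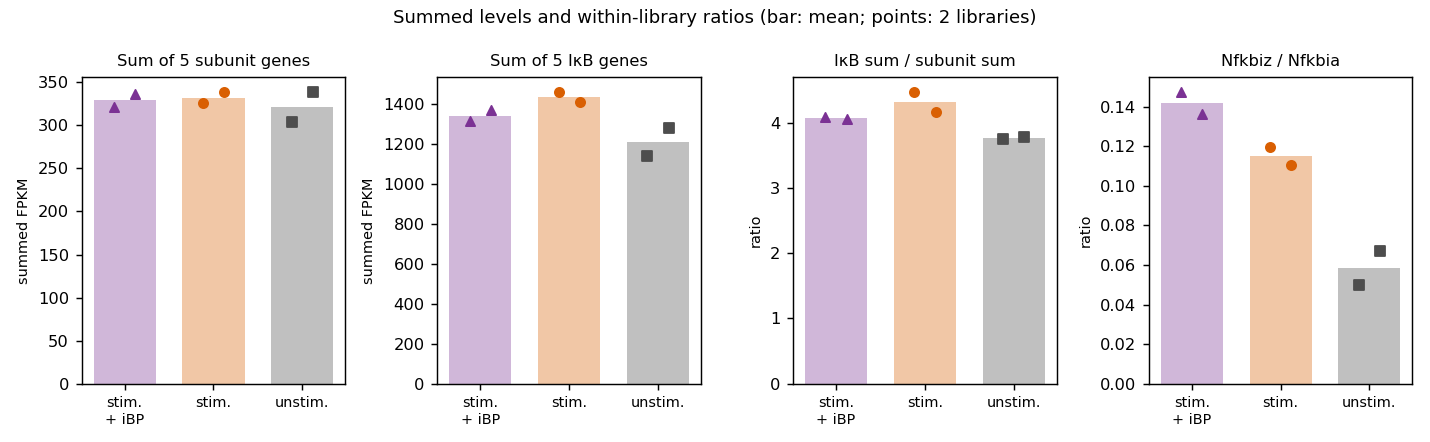
Summed FPKM of the 5 subunit genes, summed FPKM of the 5 IκB genes, the ratio of these sums and the ratio of Nfkbiz to Nfkbia, on linear axes from 0, with bars for means and points for the 2 libraries of each group. Subunit sums overlap between groups, and the ratio of Nfkbiz to Nfkbia is 0.0669 or lower in unstimulated and 0.111 or higher in the other libraries.

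Treg stimulated with iBP were then set against stimulated Treg, to see whether the family differs in the presence of iBP. No member passed the test (0 of 10), in a comparison where limma called 1 of 10436 genes (0.00958%) and 498 had an unadjusted p under 0.05 (4.77%). None of the 10 had an unadjusted p under 0.05. These libraries hold no measurement of H2AK119ub1 and do not show what iBP did to it. Nfkbiz read 128 and 121 FPKM with iBP, against 117 and 110.0 FPKM without it. The iBP values were the higher ones, yet the difference of 0.13 ± 0.16 (log2, SE; 95% interval −0.21 to 0.48) was within the error of the fit. Nfkbiz stood at 0.148 and 0.136 of the level of Nfkbia with iBP, against 0.120 and 0.111 in stimulated libraries. The exact permutation test of that ratio gave a two-sided p of 0.333, the smallest possible.

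Nfkbia had the smallest p of the family with iBP. It read 869 and 891 FPKM with iBP, against 980 and 993 FPKM in stimulated libraries, a log2 difference of −0.16 ± 0.10 (95% interval −0.37 to 0.05; unadjusted p = 0.112, adjusted p = 0.998). The iBP values lay below both stimulated values and above both unstimulated values of 831 and 866 FPKM. The other IκB genes differed by −0.05 for Nfkbid, 0.05 for Nfkbie and 0.14 for Nfkbib. Nfkbid read 196 and 218 FPKM with iBP, between the stimulated values, Nfkbie 49.1 and 56.7 FPKM, around them, and Nfkbib 70.8 and 79.0 FPKM, above them.

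The subunit genes with iBP stayed near their stimulated levels, with log2 differences from −0.10 for Nfkb2 to 0.14 for Relb. Relb read 16.3 and 17.8 FPKM with iBP, against 14.6 and 16.2 FPKM in stimulated libraries. Rel read 141 and 152 FPKM with iBP, Nfkb1 87.3 and 83.7 FPKM, Nfkb2 46.1 and 53.3 FPKM, and Rela 31.3 and 29.8 FPKM. Except for Relb, these values overlap the stimulated ones. The 95% intervals of the 5 subunits reached at most 0.54 upward (Relb) and −0.48 downward (Nfkb2). Without overlap, 3 of the 10 genes were higher with iBP (Relb, Nfkbib and Nfkbiz) and 1 was lower (Nfkbia), where 13.6% of tested genes were higher and 21% lower. The subunit sum was 322 and 336 FPKM with iBP, against 326 and 338 FPKM in stimulated libraries, and the IκB sum 1313 and 1366 FPKM with iBP, against 1459 and 1410 FPKM. The IκB sum stood at 4.08 and 4.06 times the subunit sum with iBP and at 4.47 and 4.17 times in stimulated libraries (exact permutation test, two-sided p = 0.333, the smallest possible). The family's median difference was 0.0038, beside −0.03 over all tested genes.

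**Figure D4:**
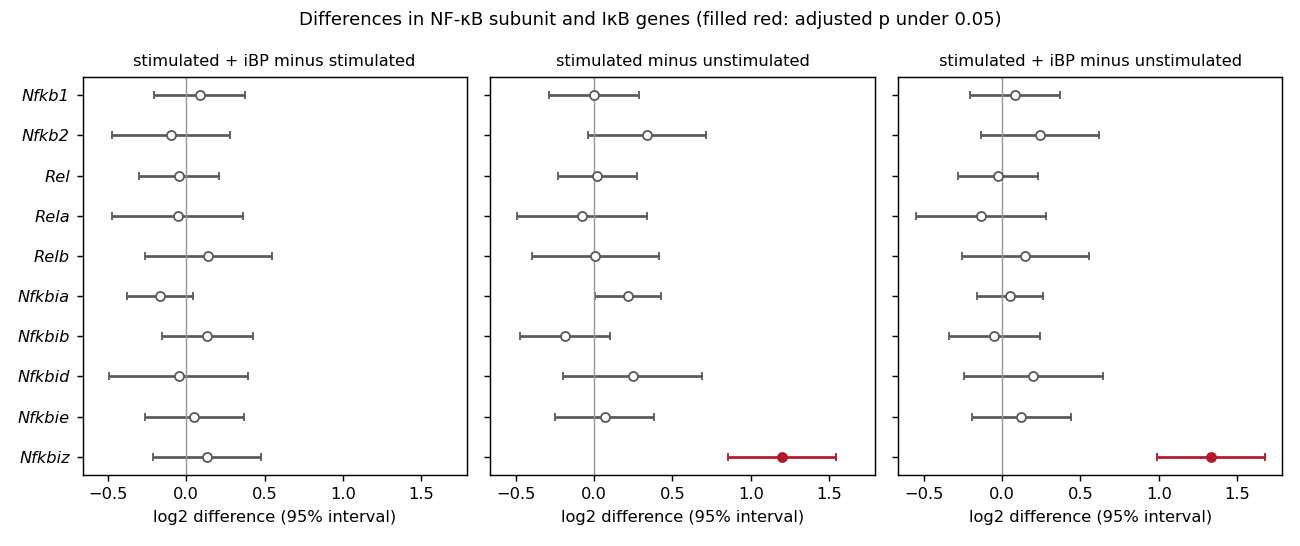
Log2 differences of FPKM + 1 with 95% intervals from the limma fit for the 10 genes, in stimulated with iBP minus stimulated (left), stimulated minus unstimulated (middle) and stimulated with iBP minus unstimulated (right). Nfkbiz, in filled red, passed the test in the middle and right panels at 1.20 and 1.33, and every other interval in the 3 panels spans 0 apart from Nfkbia in the middle one.

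Against unstimulated Treg, cells stimulated with iBP had a Nfkbiz level that was 2.52-fold higher, at 128 and 121 FPKM with iBP and 41.3 and 57.9 FPKM in unstimulated libraries (log2 1.33 ± 0.16, SE; adjusted p = 0.00136 by limma). Nfkbiz was the single member to pass of 10, where 183 of 10436 genes (1.75%) did, 107 of them higher (1.03%) and 76 lower (0.728%). Its call held without any 1 of the libraries, at 1.09 to 1.57, and ended without the filter on low values (adjusted p = 0.113) and without the variance trend (0.132). This comparison shares its unstimulated libraries with the first, so the results are not independent. Nfkbia differed by 0.05 ± 0.10 here, and Nfkb2 by 0.24 ± 0.17, with 0.031 without unstimulated replicate 1, 0.45 without unstimulated replicate 2 and 0.14 without iBP replicate 2. Without overlap, 4 of 10 genes were higher (Nfkb1, Relb, Nfkbia and Nfkbiz) and 0 lower, where 18.1% and 23.9% of tested genes were. With both stimulated groups against the unstimulated one, Nfkbiz again was the 1 member of 10 to pass (1.26 ± 0.14; adjusted p = 0.000401), among 254 genes (2.43%), 158 of them higher (1.51%). Nfkbia and Nfkbiz were the 2 members above both unstimulated values in all 4 stimulated libraries, as were 9.98% of tested genes.

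The spread over the 6 libraries was uneven within the family. Rel varied least, at 1.10 times between its highest and lowest library, and Nfkbiz most, at 3.10 times. Nfkbid varied by 1.75 times, Nfkb2 by 1.60 and Rela by 1.47. All 3 had their lowest value in unstimulated replicate 1, as did Nfkbiz, Nfkbia and Nfkbie. Nfkb1, Relb, Nfkbia, Nfkbib and Nfkbie stayed within 1.18 to 1.24 times. What sets unstimulated replicate 1 apart was not tested.

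By Pearson's r of log2(FPKM + 1) over the 6 libraries, given as a description without a test, the 2 genes whose pattern was most like that of Nfkbiz were Foxp3 (r = 0.995) and Whsc1l1 (r = 0.994). Foxp3, the factor that defines Treg, read 122 and 124 FPKM with iBP, 121 and 101 FPKM in stimulated and 35.5 and 47.1 FPKM in unstimulated libraries. Whsc1l1, a histone methyltransferase gene also named Nsd3, read 146 and 144 FPKM with iBP, 133 and 142 FPKM in stimulated and 53.0 and 67.7 FPKM in unstimulated libraries. All 3 patterns are set mainly by the gap between the unstimulated libraries and the rest, and with 10436 genes and 6 libraries a high r is easily reached. For Nfkbia the nearest were Herc6 (0.996) and Snord15a (0.993), for Nfkb2 Slc20a2 (0.990) and Pou5f2 (0.985), and for Nfkbib Klhdc4 (0.988) and Tkfc (0.981). Apart from Klhdc4, these were low genes, with no value above 6.35 FPKM. The rise of Foxp3 in the same libraries as Nfkbiz is a change in a marker of the cell type. Its sum with 9 other T-cell and Treg markers was 1946 and 1984 FPKM with iBP, 2008 and 2096 FPKM in stimulated and 1606 and 1566 FPKM in unstimulated libraries, and its part in the result was not tested. Of these 10 markers, Foxp3, Il2ra and Tnfrsf18 rose in stimulated and Foxp3, Il2ra and Ctla4 with iBP, each against unstimulated libraries, and none fell. With both stimulated groups against the unstimulated one, these 4 rose and Cd5, a T-cell surface receptor, fell by 0.44 (adjusted p = 0.0435 by limma). Cd5 read 149 and 158 FPKM with iBP, 173 and 154 FPKM in stimulated and 221 and 209 FPKM in unstimulated libraries. The call of Il2ra with iBP ended without unstimulated replicate 2 (adjusted p = 0.0550) or iBP replicate 1 (0.141) or 2 (0.0937), and those of Ccr7, Ctla4 and Cd5 were not recomputed with libraries left out. The other 5 markers, Cd3d, Cd3e, Cd3g, Cd4 and Ikzf2, did not pass in any comparison, and Cd4 read 107 and 91.3 FPKM with iBP, 84.3 and 83.1 FPKM in stimulated and 87.4 and 104 FPKM in unstimulated libraries.

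Other genes of the pathway were counted from lists chosen by role, with earlier results of these data known. Of 33 signalling genes, which carry the signal to the IκB kinase or damp it, 0 rose and 1 fell in stimulated against unstimulated libraries, where 0.968% and 0.326% of all tested genes did, with a median log2 difference of −0.0055. The gene that fell was Tnfaip3, which encodes A20, a ubiquitin-editing inhibitor of NF-κB signalling and itself a textbook NF-κB target. Tnfaip3 read 246 and 228 FPKM in stimulated libraries, against 357 and 394 FPKM in unstimulated ones (log2 −0.66 ± 0.11, SE; adjusted p = 0.0120 by limma). The groups are well apart, but limma's adjusted p was 0.0887 when stimulated replicate 2 was left out, 0.0516 when unstimulated replicate 2 was, and 0.0525 with the replicate number as a block. With iBP, Tnfaip3 read 231 and 220 FPKM, and it fell against unstimulated libraries as well (−0.73 ± 0.11; adjusted p = 0.00552), whose call ended without iBP replicate 1 (0.0567) or 2 (0.0880).

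Tnip1 encodes ABIN1, a ubiquitin-binding partner of A20. It read 52.3 and 51.4 FPKM with iBP, 55.0 and 61.7 FPKM in stimulated and 83.5 and 76.8 FPKM in unstimulated libraries. Its values with and without iBP lay below both unstimulated values. It differed by −0.45 ± 0.13 in stimulated against unstimulated libraries, which did not pass (adjusted p = 0.174), and fell by 0.62 with iBP against unstimulated (adjusted p = 0.0425). Leaving out any unstimulated or iBP library ended that call (adjusted p = 0.182 and 0.0644 without unstimulated replicates 1 and 2, 0.25 and 0.281 without iBP replicates 1 and 2), as did all 3 other scalings (0.0559 to 0.0714). Tnfaip3 and Tnip1 were the 2 signalling genes of 33 to pass with iBP against unstimulated, both lower, where 0.728% of all tested genes were called lower. The third gene named by the rule, Traf6, an adaptor of interleukin 1 and Toll-like receptor signalling, read 20.97 and 21.3 FPKM in stimulated libraries, against 11.9 and 14.1 FPKM in unstimulated ones (0.67 ± 0.21; adjusted p = 0.199). The kinase genes Ikbkb, Chuk and Ikbkg did not pass in any comparison.

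Of 36 NF-κB target genes, 34 were tested, and in stimulated against unstimulated libraries 8 rose, 1 fell (Tnfaip3, which the signalling list also holds) and 25 did not pass, where 0.968% of all tested genes rose and 0.326% fell. The list's median log2 difference was 0.18. The list was drawn from general knowledge of NF-κB targets in other cells, but with earlier results of these data known. Its counts are therefore a description and no independent test. Many members answer to other factors too. The largest rises were in Csf2 (GM-CSF; 2.64 ± 0.29, adjusted p = 0.000854), Lta (lymphotoxin alpha; 1.72 ± 0.15, 0.000125) and Foxp3 (1.41 ± 0.16, 0.000923). Lta read 72.9 and 83.9 FPKM in stimulated libraries, against 22.03 and 24.2 FPKM in unstimulated ones. Myc, a growth regulator, rose by 0.95 ± 0.12, Tnfrsf9, the gene of the costimulatory receptor 4-1BB, by 0.92 ± 0.12 and Il2ra, the IL-2 receptor alpha chain, by 0.92 ± 0.13, with adjusted p of 0.0017, 0.00184 and 0.00364. Other targets often used as NF-κB readouts did not pass in this comparison: Birc3 (cIAP2) differed by −0.06, Icam1 by 0.38, Cd83 by −0.01 and Tnf by 0.69 (adjusted p = 0.0805). These 4 were picked after their values were seen, and Tnf did pass with iBP against unstimulated (0.81 ± 0.17, adjusted p = 0.0333). The adjusted p of Tnf there was 0.169 without unstimulated replicate 1, 0.235 and 0.201 without iBP replicates 1 and 2, and 0.0690 with the replicate block. Without unstimulated replicate 2, Tnf also passed in stimulated against unstimulated libraries (0.0390). With iBP against stimulated, 0 of 34 passed and 10 differences were positive and 24 negative, where 44.2% of all tested genes were positive, and the median was −0.14. The smallest p-values there were those of Bcl2a1d (−0.33 ± 0.15, unadjusted p = 0.0440), a survival gene with close copies, Csf2 (−0.59 ± 0.29, 0.0638) and Cflar (−0.31 ± 0.17, 0.0926), each with an adjusted p of 0.998.

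Of 17 receptor genes that feed into NF-κB, 15 were tested, and 3 rose and 1 fell with stimulation, where 0.968% of all tested genes rose and 0.326% fell. Icos, a costimulatory receptor of the CD28 family, rose by 1.01 ± 0.11 (adjusted p = 0.000993), and Tnfrsf9 and Tnfrsf18, the GITR gene, by 0.92 ± 0.12 and 0.61 ± 0.10 (adjusted p = 0.00184 and 0.0120). Cd27, a TNF receptor family gene of resting T cells, fell by 0.70 (SE 0.13, adjusted p = 0.0264). The Tnfrsf18 call ended without stimulated replicate 2 (0.0763). That of Cd27 ended without stimulated replicate 1 (0.0818) or 2 (0.185), or unstimulated replicate 1 (0.132), and the replicate block ended both (0.0618 and 0.0803). Tnfrsf9 and Tnfrsf18 are also in the target list. With iBP against stimulated, 0 of 15 receptor genes and 0 of 33 signalling genes passed. The signalling genes with the smallest p there were Otulin, a deubiquitinase of linear chains (−0.59 ± 0.26, unadjusted p = 0.0451), Bcl3, another nuclear IκB protein gene (−0.50 ± 0.28, 0.1), and Nfkbil1 (−0.43 ± 0.27, 0.134). Bcl3 read 5.69 and 3.80 FPKM with iBP, 6.39 and 7.63 FPKM in stimulated and 6.06 and 8.10 FPKM in unstimulated libraries, well below Nfkbiz and Nfkbid.

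**Figure D5:**
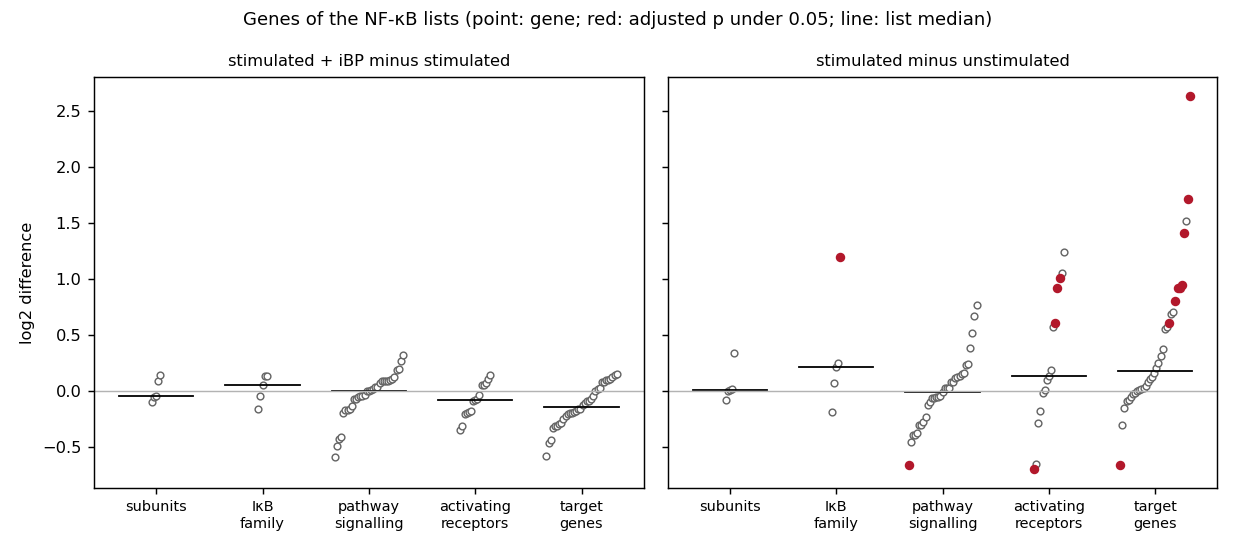
Log2 differences of the tested genes in the subunit, IκB family, pathway signalling, activating receptor and target lists, in stimulated with iBP minus stimulated (left) and stimulated minus unstimulated (right), with 1 point per gene, red where the adjusted p was under 0.05, and a line at each list's median. On the left 0 points are red, and on the right Nfkbiz is the 1 red point of the IκB family, Tnfaip3 the 1 red point of the signalling list, and 8 of 9 red target genes lie above 0.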

How the data were processed

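The authors deposited one table of FPKM values per gene and library. Per the submitters' processing notes it rests on HISAT2 2.2.1, StringTie 2.1.1 and mm10, while annotation, filters and strand are not given there. Without molecular identifiers, PCR copies count as separate fragments. Columns were mapped to samples by library names in the labels. Values were analysed as log2(FPKM + 1), so fold changes of low genes are understated. The 10436 genes that reached an FPKM of 1 in 2 or more libraries entered a linear model of 3 groups over all 6 libraries, using limma 3.58.1 (R 4.3.3), where a variance trend over level was moderated across genes and the residual degrees of freedom were 3, the prior ones 8.52. Two-sided p-values were adjusted over all tested genes, with 0.05 as threshold. Separate animals are not stated, and p-values then measure only the spread between these libraries, which may be technical.

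The members and gene lists were chosen with earlier results of these data known. All 10 members are described. Of other lists, up to 6 genes past the test with the largest differences are named, or, where fewer than 3 passed, up to 3 by smallest p. Patterns most like a member are the 2 genes with the highest r, for the 4 members with the smallest p. Predicted genes and microRNAs were left out there. The fit was tested on simulated data whose noise was independent between libraries and followed a variance trend over level. Such data share the assumptions of the fit, so this check says nothing of calls that end without the trend or the filter. Positions and overlaps are from GENCODE M21 (GRCm38), promoters from RefSeq. Figures used matplotlib 3.10.9 in Python 3.11.15. Alternatives were a pseudocount of 0.1, other filters and scalings, no variance trend, fewer groups, a replicate block and leaving out each library.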

Additional observations from a re-analysis of the deposited data

How the results depend on the processing

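Without the filter on low values, 12 genes passed in stimulated against unstimulated, 0 in iBP against stimulated, 11 in iBP against unstimulated and 20 in both stimulated groups against unstimulated. Without the variance trend these counts were 12, 0, 9 and 32. In both settings 0 members passed where Nfkbiz otherwise did, of the other genes named Lta alone passed in stimulated against unstimulated (adjusted p = 0.0444 and 0.0482) and not in iBP against unstimulated (0.0525 and 0.0813), and the cause was not tested. With only the groups compared in the fit, 79 genes passed in stimulated against unstimulated. With the replicate number as a block, 79 passed there and 109 in iBP against unstimulated, while Nfkbiz kept its calls (adjusted p = 0.0129 and 0.00765). Equal replicate numbers did not deviate together (correlations across genes of −0.046, −0.018 and −0.012). With 2 libraries a group, noise of single libraries can hide a shared animal or day. Whether equal numbers pair libraries therefore stays unknown, and the labels do not say. Leaving out each library gave 54 to 141, 0 to 5, 53 to 190 and 116 to 224 genes in the 4 comparisons in the order above. Against unstimulated libraries, stimulated ones gave 84 without unstimulated replicate 1 and 81 and 54 without stimulated replicates 1 and 2, and iBP ones gave 95 without unstimulated replicate 1 and 76 and 53 without iBP replicates 1 and 2. For both stimulated groups the count was 116 without unstimulated replicate 1 and 156 without iBP replicate 1. Between iBP and stimulated libraries it was 0 without either stimulated replicate and 5 and 3 without iBP replicates 1 and 2.

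Nfkbiz kept its direction under all 15 alternatives in each of its 3 comparisons and passed in 13 of 15 against unstimulated libraries. Members near 0 changed sign without ever passing. In stimulated against unstimulated, leaving out a library gave −0.12 to 0.12 (log2) for Nfkb1, −0.027 to 0.067 for Rel, −0.35 to 0.19 for Rela, −0.060 to 0.076 for Relb, −0.11 to 0.60 for Nfkbid and −0.014 to 0.15 for Nfkbie. In iBP against stimulated it gave −0.033 to 0.20 for Nfkb1, −0.21 to 0.013 for Nfkb2, −0.099 to 0.0093 for Rel, −0.14 to 0.028 for Rela, −0.24 to 0.15 for Nfkbid and −0.051 to 0.16 for Nfkbie, and quantile normalization gave 0.015 for Rel and 0.012 for Rela. In iBP against unstimulated, leaving out a library gave −0.079 to 0.030 for Rel, −0.40 to 0.13 for Rela, −0.13 to 0.029 for Nfkbib and −0.16 to 0.56 for Nfkbid. There Rel stood at 0.019 after rescaling to TPM, 0.012 with median-of-ratios scaling and 0.034 with quantile normalization, which put Nfkbib at 0.007. No counting error could be derived, since read depth is unknown.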
